A study of Mus musculus with 69 samples.

Results

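The response of F1 C57 x SPRET macrophages to interleukin-4 (IL-4) was measured in 4 RNA-seq libraries out of the 69 samples of the study, which compares macrophages of inbred mouse strains and their crosses before and after IL-4. The 4 libraries were taken by their labels: 2 basal and 2 treated libraries of bone marrow-derived macrophages (BMDMs) from the first-generation cross of C57BL/6J (C57) and SPRET/EiJ (SPRET) mice, whose strain label is FSC. Marrow cells were differentiated for 7 days with M-CSF, the growth factor that drives marrow progenitors to macrophages, and then left untreated or given 20 ng/mL mouse IL-4 for 24 h. By the methods, adult female mice were used throughout and the libraries were biological replicates, but neither the methods nor the labels say whether the 2 libraries of a group came from separate animals or cultures, so the p-values below measure the spread between these libraries. As the reference served the 2 inbred parents, each with 3 basal and 3 treated libraries (24 h, same dose), which were made from C57 and SPRET BMDMs and stand in another table.

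IL-4 binds a receptor of IL-4Rα and the common gamma chain, activates the kinases JAK1 and JAK3 and through them the transcription factor STAT6, and turns macrophages to alternative activation, a state known for arginase, lectins, resistin-like and chitinase-like proteins and a restrained inflammatory programme. C57 is a laboratory strain and SPRET is inbred from the wild species Mus spretus, so that the genomes differ at a large number of sites. A cell of their F1 carries one copy of each parental genome in the same nucleus, so both copies see the same cytokine, receptor and transcription factors.

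In F1 macrophages, 304 genes rose and 1022 fell more than 2-fold after 24 h of IL-4, at an adjusted p under 0.05 by limma, of 12256 genes tested. These are 2.48% and 8.34% of the genes tested. The largest rises were those of Rnase2a and Retnla, genes with no read in either basal library, and the genes that rose further included Chil3, Arg1, Socs1, Ccl22, Ccl24, Ccl17, Mgl2 and Msx3. Cx3cr1 and Slc40a1 fell the most among genes longer than 200 bases. A gene's value in a library was the sum of its C57 and SPRET allele columns, each in TPM (a share of the column's reads corrected for gene length), and is called the summed TPM. Fold changes are on the scale of log2(summed TPM + 1), which understates the change of low genes with reads in both groups. Where a group had no read, the added 1 stands in for its value and sets the size of the change.

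The balance of rises and falls rested on how the libraries were scaled. With the values as deposited, the 12256 tested genes had a median log2 fold change of -0.31, both IL-4 libraries lay below both basal libraries for 57.7% of them and above for 17.1%, and 22.9% of the called genes were rises. After rescaling by the median of gene ratios, 590 genes rose (4.81%) and 372 fell (3.04%), so that 61.3% of the called genes were rises. All 304 rises and 372 of the 1022 falls were called under both scalings. Below, a rise or fall is one called with the values as deposited, to be read against the median of -0.31, and every fall that the rescaling ended is marked as such. Counts in a gene list are to be read against the shares over all genes, 2.48% for rises and 8.34% for falls. In the parents the median was -0.04 in C57 and 0.11 in SPRET.

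**Figure D1:**
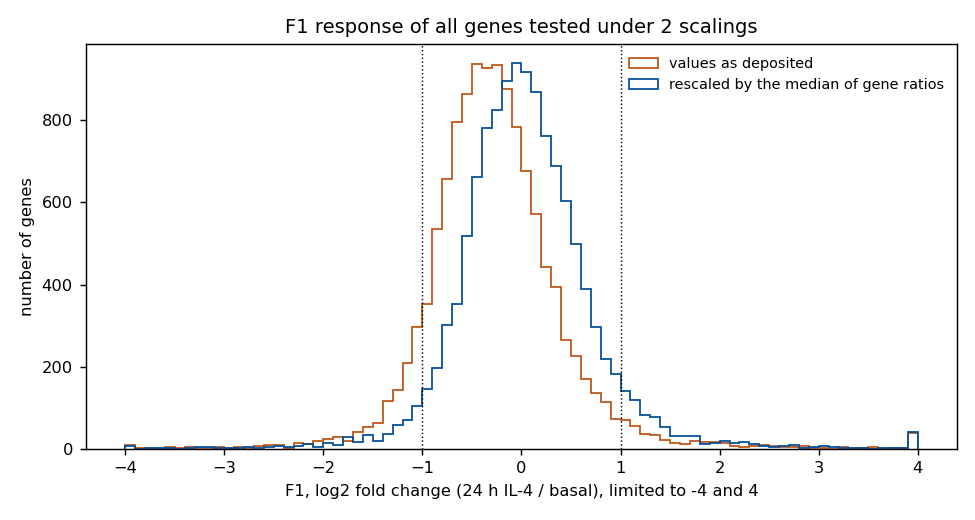
Number of genes (y axis, count) by F1 log2 fold change after 24 h of IL-4 (x axis, limited to -4 and 4) for the 12256 genes tested, with the values as deposited (orange) and after rescaling by the median of gene ratios (blue). The dotted lines mark a 2-fold change in each direction; the orange curve sits to the left of the blue one, with medians of -0.31 and 0.005.

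One column of one library stood apart. The reads assigned to an allele column numbered 4.69 to 5.43 M (M for 1000000 reads) in 7 of the 8 columns and 11.14 M in the SPRET column of the second IL-4 library, 2.08 times those of that library's C57 column. In that column 18 gene rows had at least 100 TPM while lying under 10 TPM in the other 7, among them the ribosomal RNA row Rn45s with 6977 TPM against 0. None of these 18 rows was called in F1. By their selection they differed between the 2 IL-4 libraries, which works against a call. This count therefore does not show that the column left other calls untouched. The correlation of log values between the 2 libraries of a group was 0.953 for basal and 0.934 for IL-4. Without this column, on the C57 allele alone, 272 genes rose and 763 fell (2.41% and 6.76% of 11281 tested), of which 210 and 650 were among those above. With the second IL-4 library left out altogether, 28 genes rose and 20 fell, since 1 treated library then stood against 2 with a single residual degree of freedom.

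The libraries had the profile of macrophages. Cd68, a lysosomal glycoprotein, was at 13924 and 16632 summed TPM in the basal libraries and at 14916 and 16466 in the treated ones, and Csf1r, the M-CSF receptor, was at 981 or more in all 4. The 8 macrophage markers summed to 74365 to 79783 in the basal and 55051 to 56049 in the treated libraries, and 2 of the 8 fell, Fcgr1 and Mertk (the fall of Mertk was not called after rescaling). Of the 8 markers 6 lay below 0 and 2 above. Their median log2 fold change was -0.83 (-0.48 after rescaling), below the -0.31 (0.005) of all genes tested. Markers of other cells were low: the 8 neutrophil markers summed to 27.5 to 62.1, nearly all of it S100a8, the 5 dendritic cell markers to 2.9 to 6.5 (of these Clec9a fell, by 1.05, though not after rescaling), and the lymphocyte, mast cell and basophil, stromal and erythroid markers to 3.0 or less each. Flt3, Cd3e, Elane, Col1a2 and Hba-a1, which define such cells, lay at 0.66 or below. In such bulk samples fewer cells of a type and less RNA per cell cannot be told apart, and the part of the lower marker sum in the falls below was not tested.

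Retnla, on chromosome 16 (48842552 to 48844461, mm10), encodes the secreted resistin-like molecule alpha (FIZZ1), a classical product of alternatively activated mouse macrophages. It had 0 summed TPM in both basal libraries and 2368 and 1928 after IL-4, so the groups did not overlap and the rise was at least 1579-fold against a floor of 3 reads over the basal group. Its log2 fold change was 11.06 ± 0.14 (SE, n = 2 per group; limma adjusted p = 0.00044). How reads that overlap no variant were divided between the alleles is not given in the sources used here, so an allele value, here and below, may hold reads shared out from the other allele. By these values both alleles took part, with 1068 and 1000 TPM on the C57 allele and 1300.2 and 928 on the SPRET allele. Neither parent showed a rise of this size. In C57 Retnla was at 3.94 TPM before and 4.34 after IL-4, with a log2 fold change of 0.12 (adjusted p = 0.53). In SPRET it was at 0 before and 0.442 after, with a log2 fold change of 0.50 (adjusted p = 0.0041), under the 2-fold threshold. In the time-course experiment of the same study, with 2 libraries per group, the log2 fold change of Retnla was 0.01 in C57 and 2.63 in SPRET. The F1 and the parents stand in separately normalized tables of separate libraries, so a difference between genotypes and one between experiments cannot be told apart.

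Rnase2a, a ribonuclease of the eosinophil-associated family on chromosome 14, went from 0 in both basal libraries to 5289 and 3999 summed TPM, at least 1520-fold higher, with a log2 fold change of 12.17 ± 0.16. It was induced in both parents, by 2.40 in C57 and 7.18 in SPRET. The related genes Ear2, Ear3 and Ear12 were also among the 10 largest rises, with log2 fold changes of 6.24, 6.67 and 6.66. Ear3 and Ear12 are listed at identical coordinates (chromosome 14, 44102887 to 44103357), which lie within Ear2, and near-identical copies of this family share reads, so the values of the single members are uncertain. They also leaned on the column that stood apart: Ear3 had 34.8 and 42.7 TPM on the C57 allele of the treated libraries, and 5.62 and 208 on the SPRET allele.

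Arg1 and Slc7a2 carried the arginine arm of the response. Arg1 (chromosome 10, 24915207 to 24927470), the enzyme that splits arginine into ornithine and urea, was at 0.547 and 0.605 summed TPM in the basal libraries and at 103 and 89.5 after IL-4, a log2 fold change of 5.95 ± 0.13 (adjusted p = 0.001). With 1 added before the log, the F1 value lay between those of C57 (4.75) and SPRET (6.83). It was at 0.58 of the way from C57 to SPRET. The F1 value was 7.15 with 0.1 added and 3.33 with 10 added, so this position rests on the value added. The alleles had nearly equal levels, 53.8 and 45.8 TPM for C57 and 49.5 and 43.7 for SPRET. Slc7a2, a cationic amino acid transporter that brings arginine into the cell, rose from 11.4 and 11.2 to 160 and 119, by 3.50 ± 0.17. The groups were apart for both genes, and both IL-4 libraries lay higher for 17.1% of all genes tested. The other 9 tested genes of the arginine and polyamine list were not called: Odc1, which makes putrescine from ornithine, had a log2 fold change of 0.28, and Srm, spermidine synthase, had 0.98 (called after rescaling, at 1.32). The list of 12 genes had 11 tested, 2 called up, 0 down and a median of 0.28, beside -0.31 for all genes.

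**Figure D2:**
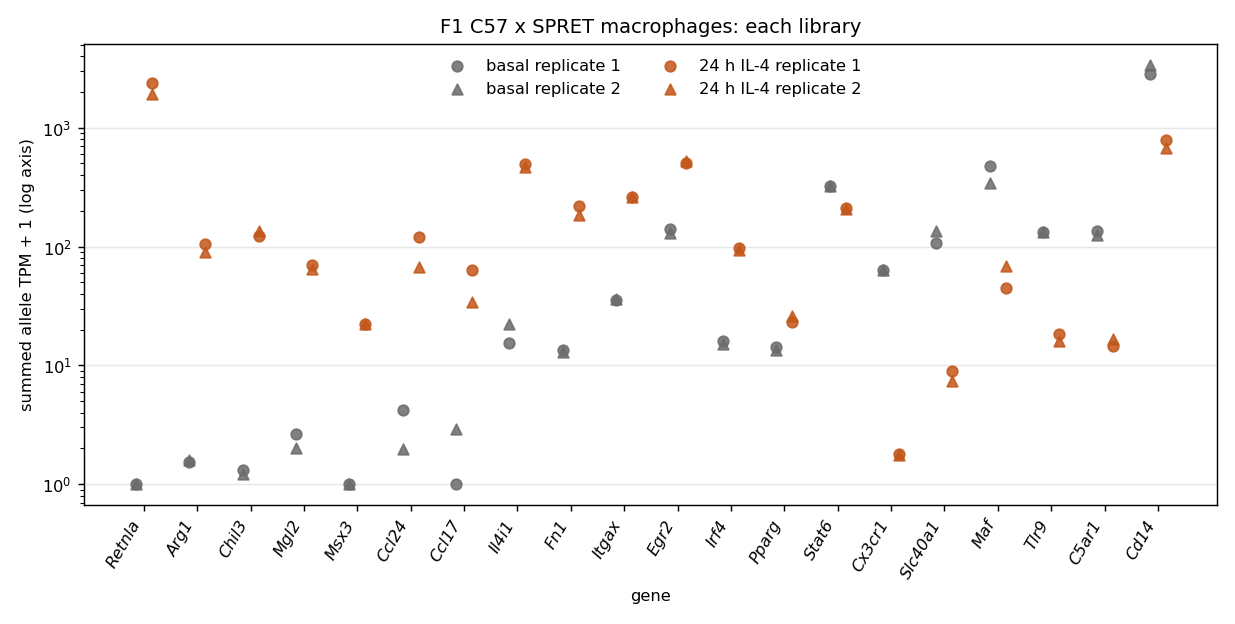
Summed allele TPM + 1 (y axis, log scale) of 20 genes (x axis) in each of the 4 F1 libraries; gray marks are basal and orange marks 24 h IL-4, circles replicate 1 and triangles replicate 2. The 2 libraries of a group lie close together for most genes, and the groups are apart for all 20 genes. Among all genes tested both IL-4 libraries lay above both basal ones for 17.1% and below for 57.7%. Pparg and Stat6 show the smallest distance.

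Of 18 tested genes in the list of alternative activation, 13 rose and 1 fell, with a median log2 fold change of 2.65 (2.94 after rescaling). Over all genes tested 2.48% rose and 8.34% fell. Chil3 (Ym1), a chitinase-like lectin, was at 0.324 and 0.215 summed TPM in the basal and at 121 and 135 in the treated libraries, a rise of 6.66 ± 0.12. Mgl2, a galactose-type lectin (CD301b), rose by 4.85, Rbp4, the plasma carrier of retinol, by 4.83, and Fn1, fibronectin, by 3.93. Itgax (CD11c), an integrin chain, went from 34.2 and 35.5 to 260.2 and 260.0, by 2.86 ± 0.09. Smaller rises were those of Pdcd1lg2 (2.13), the PD-1 ligand PD-L2, Cdh1 (1.73), E-cadherin, and Ch25h (2.39), which makes 25-hydroxycholesterol. Chil4, a close relative of Chil3, rose by 2.44 from 0 in both basal libraries. Without the filter on low values, neither Ch25h nor Chil4 was called (limma adjusted p = 0.0676 and 0.056). The log2 fold change of Ch25h was 3.66 on the C57 allele and 0.43, not called, on the SPRET allele.

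Not all markers of the state moved. Mrc1, the mannose receptor CD206, was at 79.8 and 77.6 in the basal and 123 and 118 in the treated libraries, a log2 fold change of 0.61 that did not pass 2-fold, while it rose by 3.59 in C57 and 2.09 in SPRET. Clec7a, the beta-glucan receptor dectin-1, had 0.63 in F1 and rose by 3.17 and 5.19 in the parents. Clec10a, another galactose-type lectin, had -0.08 in F1 (0.27 after rescaling), 2.88 in C57 and 0.00 in SPRET. Alox15, a lipoxygenase, was the 1 member that fell, by 1.00 from 8 reads in each basal library, and its fall was not called after rescaling. Cd209e and Aldh1a2 were too low to be tested.

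The promoters of 3 of the 4 genes of this list that rose and hold a STAT6-type element are shown (the other is Pdcd1lg2), because STAT6 is the factor that IL-4 activates. The motif searched was TTCNNNNGAA, which reads the same on both strands, in 300 bases from 250 before to 50 after the annotated start. Capitals mark the match, and the sequences are those of RefSeq on GRCm38.p6, the C57 genome, not of SPRET.
Retnla (chr16:48842359-48842658, plus strand): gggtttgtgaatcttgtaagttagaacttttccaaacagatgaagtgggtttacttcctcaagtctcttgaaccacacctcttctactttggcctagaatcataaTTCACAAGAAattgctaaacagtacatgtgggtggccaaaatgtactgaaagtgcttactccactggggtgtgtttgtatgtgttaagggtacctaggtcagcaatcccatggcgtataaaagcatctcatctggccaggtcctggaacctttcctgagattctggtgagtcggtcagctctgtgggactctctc
Rbp4 (chr19:38125272-38125571, minus strand): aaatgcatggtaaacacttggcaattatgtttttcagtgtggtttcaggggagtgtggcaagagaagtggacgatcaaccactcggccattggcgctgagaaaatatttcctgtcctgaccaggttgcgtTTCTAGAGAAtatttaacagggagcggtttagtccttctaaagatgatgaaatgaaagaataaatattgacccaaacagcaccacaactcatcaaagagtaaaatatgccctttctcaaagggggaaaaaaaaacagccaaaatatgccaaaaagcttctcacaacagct
Itgax (chr7:128129300-128129599, plus strand): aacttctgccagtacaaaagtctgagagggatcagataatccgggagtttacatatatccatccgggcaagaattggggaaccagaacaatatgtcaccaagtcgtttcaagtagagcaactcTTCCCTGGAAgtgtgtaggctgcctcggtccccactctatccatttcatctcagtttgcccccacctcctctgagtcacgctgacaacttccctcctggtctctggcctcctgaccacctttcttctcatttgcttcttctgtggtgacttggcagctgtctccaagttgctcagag

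The match began 145 bases before the start in Retnla, 120 in Rbp4 and 127 in Itgax. The start is that of the promoter annotation, and for Retnla it differs from the first base of the gene given above. Promoter sequences were found for 9562 of the 12256 genes tested. The motif was in 24 of 215 promoters of genes that rose (11.2%), in 48 of 764 of genes that fell (6.28%) and in 456 of 8583 of genes not called (5.31%), beside 6.95% of all 32851 promoters in the table. No test was run on these shares, and a match is not a bound site.

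Of 13 genes of IL-4 receptor and STAT6 signalling, 3 rose (Socs1, Cish and Socs2) and 3 fell (Il4ra, Il13ra1 and Ptpn6), with a median of -0.35. The shares over all genes tested were 2.48% for rises and 8.34% for falls. Socs1, a suppressor of JAK signalling, was at 0 and 4.25 summed TPM in the basal and 98.1 and 250 in the treated libraries, a rise of 6.11 ± 0.94 whose wide error came with the spread between libraries. Cish, a related inhibitor, rose by 4.64 and Socs2 by 1.13. Stat6 itself had 322 and 323 in the basal and 210 and 205 in the treated libraries, a log2 fold change of -0.63 (-0.29 after rescaling) below the 2-fold threshold. Il4ra (-1.17), the ligand-binding chain, and Ptpn6 (-1.23), the phosphatase SHP-1, fell only with the values as deposited, and Il13ra1 (-1.89), the receptor chain shared with IL-13, fell under both scalings. The kinases Jak1 (-0.35), Jak3 (-0.46) and Tyk2 (-0.49), the common gamma chain Il2rg (-0.16), the adaptor Irs2 (0.53) and the inhibitor Socs3 (0.69) were not called. After rescaling the list had 3 rises and 1 fall.

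Among 19 transcription factors linked to the IL-4 response, 6 rose and 1 fell, beside 2.48% and 8.34% of all genes tested. Their median log2 fold change was 0.67 (0.99 after rescaling). Egr2, a zinc-finger factor known as a late amplifier of alternative activation, was at 141 and 129 in the basal and 504 and 528 in the treated libraries, a rise of 1.93 ± 0.10, close to that of C57 (1.97) and below that of SPRET (4.09). Batf3, an AP-1 family factor, rose by 4.02, Irf4, which partners with it, by 2.60, Klf4 by 1.41, Myc by 1.38 and Klf2 by 1.29. Pparg, the nuclear receptor for fatty acid ligands, had 13.2 and 12.3 against 22.2 and 24.9, with a log2 fold change of 0.83 ± 0.12 (adjusted p = 0.013) that passed 2-fold only after rescaling, at 1.16. In the parents Pparg rose by 2.34 and 2.42. Egr3 fell by 2.68, from 16 and 29 reads to 1 and 2. Bhlhe40, a basic helix-loop-helix factor, had 0.71 (1.06 and called after rescaling).

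Chemokines split by family. Of 15 tested, 8 rose, all of them CC ligands, and 4 fell, all of them CXC ligands, under both scalings. The median was 1.81, and over all genes tested 2.48% rose and 8.34% fell. Ccl22 and Ccl17, ligands of CCR4, rose by 5.10 and 4.76, Ccl24 (eotaxin-2) by 4.95, and the monocyte attractants Ccl7 and Ccl2 by 5.27 and 2.85. Ccl9 was the most abundant after IL-4 per unit of length, with 736 and 996 in the basal and 2758 and 3309 in the treated libraries. Ccl8 rose by 1.88 from 0 reads to 3 and 6. Cxcl10, an interferon-induced ligand of CXCR3, fell by 3.41, Cxcl16 by 2.25, and Cxcl1 and Cxcl2, neutrophil attractants, by 2.25 and 1.70. Here the parents went elsewhere: Cxcl1 and Cxcl2 rose in SPRET, by 2.29 and 2.99, and were not called in C57 (-0.03 and 0.38). Cxcr3, the receptor of Cxcl10, fell by 3.33 in F1.

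**Figure D3:**
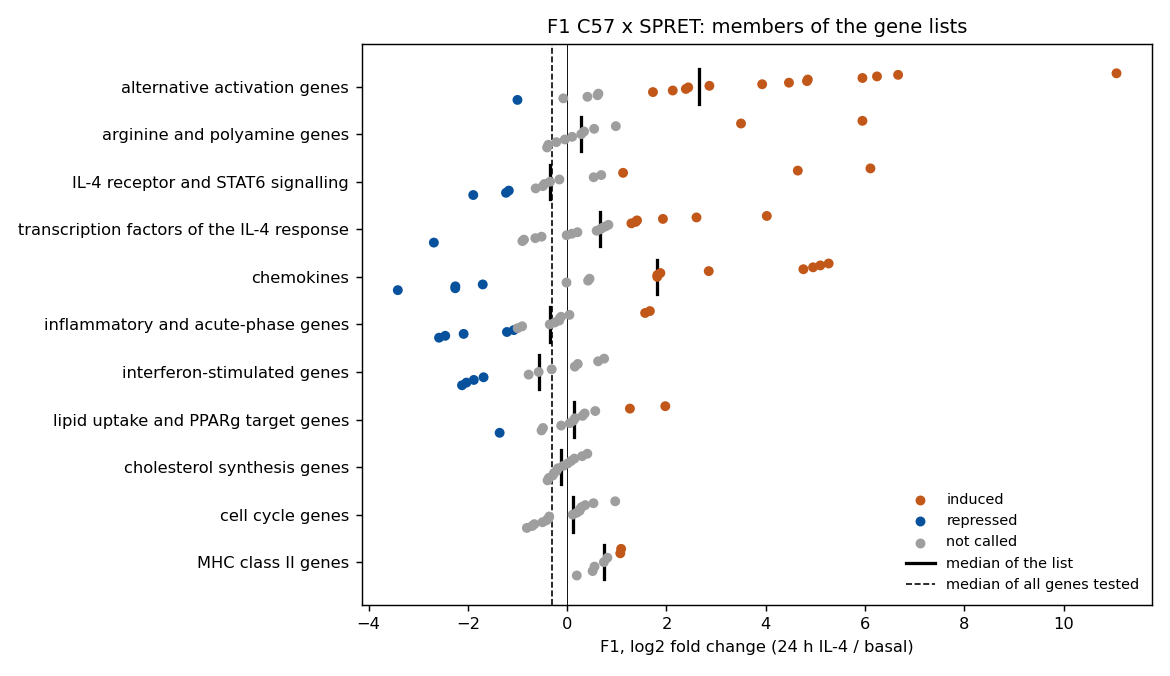
F1 log2 fold change after 24 h of IL-4 (x axis) for each tested member of 11 gene lists (rows); orange points rose, blue points fell and gray points were not called, the solid bar is the median of the list and the dashed line the median of all genes tested, -0.31. The medians of the alternative activation genes, 2.65, and of the chemokines, 1.81, lie farthest to the right.

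Inflammatory and interferon-response genes fell more often than they rose with the values as deposited, but so did all genes tested. Of all genes 8.34% fell and 2.48% rose (3.04% and 4.81% after rescaling). In the inflammatory and acute-phase list 5 of 15 tested genes fell and 2 rose (3 and 2 after rescaling), with a median of -0.35, close to that of all genes. Cd14, the co-receptor for lipopolysaccharide, went from 2851 and 3375 to 789 and 677, by -2.08 ± 0.15, Tlr2, the receptor for bacterial lipoproteins, fell by 2.45 and Nlrp3, the inflammasome sensor, by 2.58. Il1b and Il1rn fell by 1.08 and 1.21 with the values as deposited only. Saa3, an acute-phase protein, and Hp, haptoglobin, rose by 1.67 and 1.57, whereas both fell in both parents. The log2 fold change of Hp was -3.21 in C57 and -3.23 in SPRET, and its F1 rise rested on 3 and 2 basal and 18 and 17 treated reads. Of 11 tested interferon-stimulated genes 4 fell and 0 rose, with a median of -0.57 (4 and 1, Usp18, after rescaling, with a median of -0.23): Oasl2 by 2.12, Mx1 by 2.03, Irf7 by 1.88 and Rsad2 by 1.68, each of them an antiviral effector or, for Irf7, the factor that drives interferon genes. In neither parent did any of these 4 pass the test.

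Lipid genes changed one by one. Fabp4, a fatty acid binding protein and a known PPARγ target, was at 227 and 204 in the basal and 865 and 833 in the treated libraries, a rise of 1.98 ± 0.11. Its response in F1 was near that of SPRET (2.02) and unlike that of C57 (-0.24). Cd36, a scavenger receptor, rose by 1.26, and Abca1, a cholesterol exporter, fell by 1.36, while the other 9 tested members of the list were not called. Of 12 cholesterol synthesis genes and 15 cell cycle genes none passed the test by limma, although 2 cholesterol genes and 5 cell cycle genes had an adjusted p under 0.05 at less than 2-fold, and Ccne1 passed after rescaling. All 7 MHC class II genes lay above 0, with a median of 0.74, and 2 passed the test, Cd74, the invariant chain, by 1.09 and H2-DMa, a peptide exchange subunit, by 1.07; after rescaling 4 did.

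Among the falls, Cx3cr1 (chromosome 9, 120048683 to 120068296), the fractalkine receptor, was at 62.0 and 62.2 summed TPM in the basal libraries and 0.783 and 0.759 after IL-4, from 735 and 837 reads to 12 and 15. This was 80.5-fold lower by the group means, with a log2 fold change of -5.16 ± 0.11 (adjusted p = 0.001), and the groups were far apart. It fell in both parents, by 2.35 in C57 and 2.07 in SPRET. Slc40a1, the iron exporter ferroportin, went from 105 and 134 to 7.95 and 6.33, by -3.89 ± 0.18, and fell by 2.50 and 1.02 in the parents. The other 8 of the 10 largest falls (Mir7012, Mir6940, Mir3069, Snord4a, Mir6980, Mir199a-1, AF357399 and Snora15) and, among the 10 largest rises, Mir7034 are rows of small RNAs under 200 bases. Each had 1 to 6 reads in every library of its higher group except Mir7034, with 5 and 7, and 0 in the other group, so that their TPM rest on single reads. Of the 304 rises 15 were rows under 200 bases, and of the 1022 falls 24.

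The next largest falls, named after their values were seen and with the rows under 200 bases set aside, included the following genes. Hpgd, which inactivates prostaglandins, fell by 3.57, P2ry13, an ADP receptor, by 3.57, Gpr34, a lysophospholipid receptor, by 3.53, and C5ar1, the receptor of complement C5a, by 3.06. Tlr9, the sensor of unmethylated DNA, went from 132 and 131 to 17.2 and 14.9, and Maf, a transcription factor of resident-type macrophages, from 477 and 343 to 43.5 and 67.5. All of these falls were called after rescaling too. The treated and basal libraries did not overlap for any of these genes, nor for any of the 1022 falls. Both IL-4 libraries lay lower for 57.7% of all genes tested, so this sets the named genes little apart. Maf had log2 fold changes of -2.88 in F1, 0.11 in C57 and -0.54 in SPRET. The time-course libraries gave -1.03 in C57 and -2.22 in SPRET. Among the rises outside the lists, Ocstamp, which takes part in the fusion of osteoclasts, went from 0.678 and 0.597 to 161 and 109, Il4i1, a secreted amino acid oxidase whose row lies within that of Il4i1b and may share its reads, from 14.3 and 21.5 to 495 and 467, and Fbp1, fructose-bisphosphatase, from 0 in both libraries to 50.0 and 29.5, at least 360-fold.

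The parents served to sort these genes. Among the parental libraries 271 genes rose and 182 fell in C57 (2.28% and 1.53% of 11907 tested), and 276 rose and 193 fell in SPRET (2.32% and 1.62%). Of the 106 genes induced in both parents and tested in F1, 64 rose in F1 (60.4%) and 2 fell, beside 2.37% and 7.85% of the 10801 genes tested in both tables (4.91% and 2.8% after rescaling). Their median log2 fold change was 1.28 in F1, 1.89 in C57 and 1.99 in SPRET. Of the 132 genes induced in C57 only, 29 rose in F1 (22.0%) with a median of 0.38, and of the 145 induced in SPRET only, 38 rose (26.2%) with a median of 0.50. The share that passed was thus highest for the genes induced in both parents, and the genes of 1 parent had smaller medians; the difference between these shares was not tested.

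The order of the shares was the same among the falls. Of the 49 tested genes repressed in both parents, 31 fell in F1 (63.3%), with a median of -1.43. Of the 94 repressed in C57 only, 28 fell (29.8%; median -0.83), and of the 114 repressed in SPRET only, 65 fell (57%; median -1.13). After rescaling the falls in these 3 groups numbered 26, 18 and 42. The 2 genes repressed in both parents that rose in F1 were Hp and Saa3. Of the 1022 falls in F1, 848 were tested in the parents and 710 were called in neither parent, and of the 304 rises 256 were tested and 122 were called in neither. Most genes were called in neither parent, 10159 of the 10801 tested in both tables. Of these 10159 genes 6.99% fell and 1.2% rose in F1, beside 7.85% and 2.37% of all 10801. Of the 372 falls called under both scalings, 302 were tested in the parents and 208 were called in neither. Among the 10159 genes called in neither parent, the rescaled values gave 354 rises and 208 falls in F1.

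**Figure D4:**
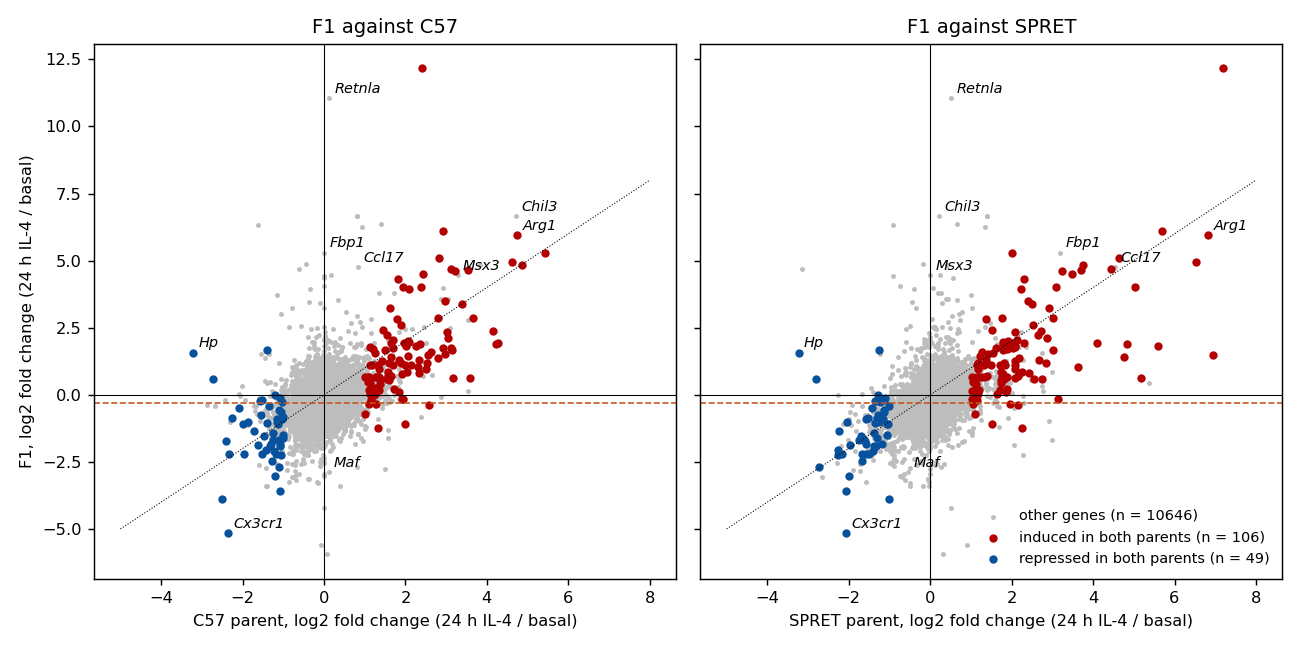
Log2 fold change after 24 h of IL-4 in F1 (y axis) against that in C57 (left, x axis) and SPRET (right, x axis) for the 10801 genes tested in both tables; red points are the 106 genes induced and blue points the 49 genes repressed in both parents, gray points all others. The dotted line marks equal values and the dashed line the F1 median, -0.31; Retnla lies at 11.06 in F1 and near 0 in both parents.

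Across these 10801 genes the F1 log2 fold change correlated with that of C57 at r = 0.43, with that of SPRET at 0.46 and with the mean of both parents at 0.51, whereas the parents correlated with each other at 0.56. With the time-course experiment, r was 0.38 for C57 and 0.57 for SPRET over 10653 genes. These are descriptions across genes, which are not independent replicates, and the points share the libraries and base composition of a gene.

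Some genes lay outside the range of both parents on the scale of log2(TPM + 1), which shrinks low values unequally in F1 and in the parents. Besides Retnla, Ear3, Ear12 and Mir7034, the gene farthest above the higher parent was Rab26os, an antisense RNA whose reads cannot be told from those of a gene on the other strand, with 4.88 in F1 on 20 and 42 treated reads and -0.44 and -0.17 in the parents. Farthest below the lower parent, besides Mir3069, Snord4a and AF357399, were Cx3cr1 and Calcb, a calcitonin-family peptide, with -2.70 in F1 and 0.82 and 0.26 in the parents. Among genes named after their values were seen, Fgl2, a fibrinogen-like immune regulator, went from 506 and 431 to 200 and 192 in F1, by -1.25 ± 0.12, but rose by 1.33 in C57 and 2.24 in SPRET. Hcar2, the niacin receptor, fell by 1.09 in F1 and rose by 1.99 and 1.51. The falls of Fgl2 and Hcar2 were not called after rescaling (-0.90 and -0.77), and that of Hcar2 was also not called with the replicate block (limma adjusted p = 0.0517) or without the filter on low values (0.0814).

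Genes whose response differed between the parents lay on both sides of and between them in F1. The response was more than 2-fold larger in SPRET for 218 genes and larger in C57 for 193, by limma on the difference itself (1.83% and 1.62% of 11907). Here and below, a larger response is the more positive log2 fold change, so a weaker fall counts as larger than a stronger one. Of these, 332 were tested in F1. With 0 for the C57 value and 1 for the SPRET value, the F1 response had a median position of 0.59, and 161 genes (48.5%) lay between the parents, 81 (24.4%) beyond C57 and 90 (27.1%) beyond SPRET. The 177 genes with the larger response in SPRET had a median of 0.36 and the 155 with the larger response in C57 a median of 0.77, so that both groups lay toward the parent with the lower response. After rescaling the medians were 0.62 and 0.57, so the first group no longer lay toward C57. The F1 and parental TPM are divided by different lengths, so the 1 added before the log shrinks their responses unequally, and a position carries this. With a parental pseudocount of 0.1 the median position over both groups was 0.50.

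The 10 genes with the greatest parental difference covered the whole range. Msx3, a homeobox factor, was at 0 in both basal libraries and at 21.1 and 21.1 after IL-4 in F1, a rise of 4.47 ± 0.13, whereas it rose by 3.28 in C57 and was near 0 TPM in SPRET before and after. Its treated F1 values came mostly from the C57 allele, with 19.3 and 14.97 TPM, against 1.804 and 6.147 from the SPRET allele. Chil3 rose by 4.72 in C57 and had 0.21 in SPRET, where it was at 0.355 TPM before and 0.570 after. In F1 its C57 allele was at 103 and 102 TPM after IL-4, and its SPRET allele went from 0 in both basal libraries to 17.9 and 32.2. The SPRET allele of Mgl2 likewise went from 1.21 and 0.633 to 16.9 and 21.7, a log2 fold change of 3.41, while the SPRET parent had 0.41. For these 3 genes the summed F1 rise was larger than that of either parent, and the SPRET allele rose in F1 by more than the SPRET parent did. The second treated SPRET allele value of each gene came from the column that stood apart. For Msx3 the value outside that column was only 1.804. These are values of log2(TPM + 1), whose shrinkage of low values differs between F1 and parents.

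Ccl17 was the mirror image, with 4.53 in SPRET and 0.83 in C57. In F1 it rose by 4.76, and its treated values were 50.1 and 28.1 TPM on the SPRET allele and 11.9 and 4.75 on the C57 allele. Ccl7 rose by 5.43 in C57, 2.01 in SPRET and 5.27 in F1. Ms4a4a, a four-span membrane protein, rose by 2.56 in C57 and 6.95 in SPRET but by 1.50 in F1, below both, with 0.58 on the C57 and 2.30 on the SPRET allele. Tmem176b, an ion channel-like membrane protein, fell by 1.36 in C57, rose by 2.05 in SPRET and fell by 1.87 in F1, with -2.11 on the C57 and -0.27 on the SPRET allele. Cxcl3 and Pgf were not called in F1 (0.42 and 0.15), on 2 to 12 reads per library, although Cxcl3 rose by 5.38 in SPRET and Pgf by 3.53 in C57.

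**Figure D5:**
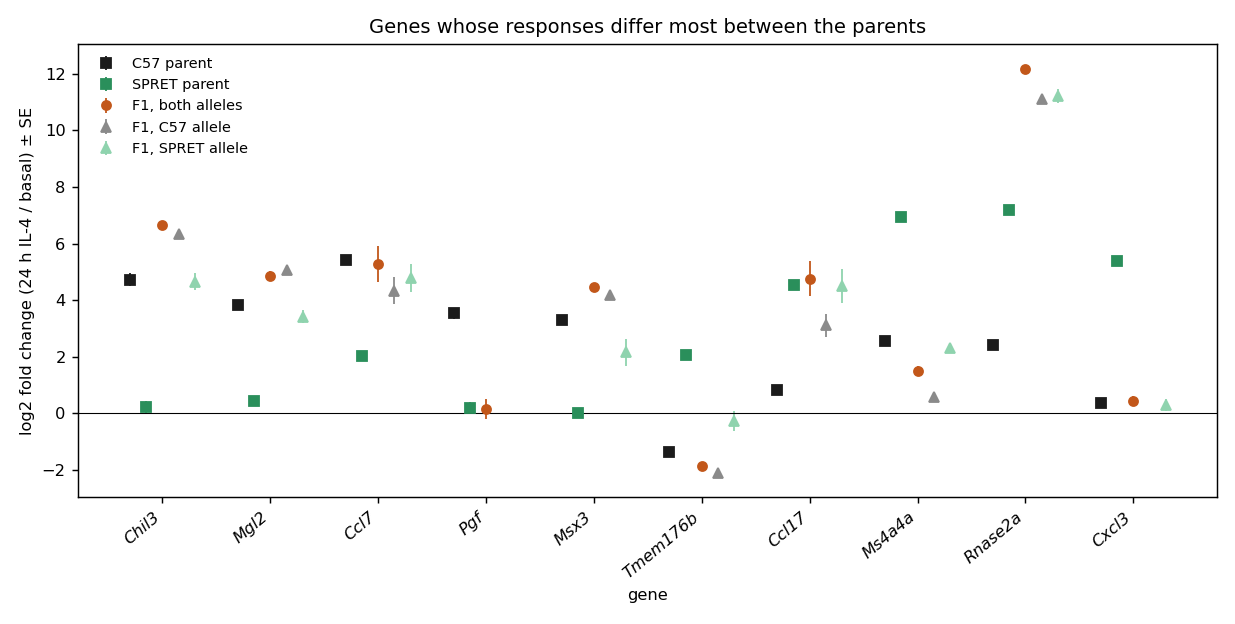
Log2 fold change ± SE after 24 h of IL-4 (y axis) of the 10 genes with the greatest difference between the parents (x axis, ordered from larger in C57 to larger in SPRET), for the C57 parent, the SPRET parent, the summed F1 value and each F1 allele; an allele too low to test has no point. For Chil3, Mgl2 and Msx3 the SPRET allele in F1 lies above the SPRET parent and below the C57 allele.

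The responses of the 2 alleles within F1 were compared on their ratio, taken within each library. None of 10826 genes passed an adjusted p under 0.05 by limma (0 of 10826 genes; the lowest adjusted p was 0.324), and 746 (6.89%) had an unadjusted p under 0.05. With 2 libraries per group this does not show that the alleles responded alike. Among genes whose response differed between the parents, 281 had both alleles measured, and in 186 of them (66.2%) the allele with the larger response came from the parent with the larger response. The share was 61.3% of 150 genes with the larger response in SPRET and 71.8% of 131 with the larger response in C57; over all genes tested the SPRET allele had the larger response in 45.3%. The median difference was 1.26 between the parents and 0.10 between the alleles in the first group, and -1.29 and -0.25 in the second. The genes were chosen for a called parental difference of more than 2-fold, so the parental medians are large by selection. The allele differences were not selected, and allele values may hold reads shared out between the alleles. How much of the parental difference the alleles kept was therefore not tested. Of these 281 genes 73 had an unadjusted p under 0.05 for the alleles.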

How the data were processed

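RNA-seq libraries of poly(A) RNA were read from tables the authors deposited. Per the labels and the methods, STAR mapped the reads, F1 reads to both parental genomes (MMARGE shifted coordinates to mm10), HOMER counted them, and DESeq2 gave the deposited fold changes and p-values, which were not used. The F1 values are deposited TPM per allele column, scaled per column and divided by the genomic span in 99.3% of rows. Each TPM column moved in whole steps (100% within 0.05 read), from which reads were recovered to give depth: 9.51 to 16.51 M reads per F1 library. The methods describe counts weighted by the share of variant-overlapping reads before assignment to an allele; how this relates to the whole steps is not stated, so a recovered read need not be a sequenced one. Parental libraries held 7.02 to 22.5 M tags. The parental TPM are divided by another length, so only responses, not levels, were compared with F1.

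Genes with a summed TPM of at least 1 in at least 2 of the 4 F1 libraries were tested with limma 3.58.1 (R 4.3.3, trend) on log2(sum + 1), with Benjamini-Hochberg adjustment. A gene was called at an adjusted p under 0.05 and over 2-fold. The parents were fitted in 1 model of the 29 libraries of the 5-strain table. On simulated data with the F1 design, 80% of 200 genes changed by 2 on the log2 scale were recovered. There were 6 false calls among the unchanged genes of the 12256. The changed genes were drawn from the higher-expressed ones, the spreads were shuffled across genes, and no shift between libraries was added. The real libraries do hold such a shift, so these figures do not give the error of the calls above. Genes were named by a rule: members of the gene lists, the 10 largest rises and falls in F1 with a group mean of at least 10, the 5 genes in each direction with the greatest parental difference, the 5 farthest above or below both parents, and genes the study names (of these Mtmr7, a phosphatase, had a log2 fold change of -0.06). Promoters came from RefSeq (GRCm38.p6). Pseudocounts, scalings, filters, left-out libraries, single alleles and the time-course table were tried as alternatives. The Egr2 knockout table was not used. The members and lists were chosen with earlier results of these data known.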

Additional observations from a re-analysis of the deposited data

Results flagged for a closer look

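The response to IL-4 differed between the C57 and SPRET parents by the test of the difference itself in each of the 10 genes named for it (limma, adjusted p under 0.05, more than 2-fold). As SPRET minus C57 log2 fold changes, the values were 5.01 for Cxcl3, 4.78 for Rnase2a, 4.39 for Ms4a4a, 3.70 for Ccl17 and 3.41 for Tmem176b, and -4.51 for Chil3, -3.42 for Ccl7, -3.42 for Mgl2, -3.33 for Pgf and -3.28 for Msx3.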

How the results depend on the processing

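The F1 design holds 2 libraries per group, so leaving any 1 out left 1 residual degree of freedom, the lone library being taken to vary like the others. Without an F1 library, the calls ranged from 5 to 28 rises and 0 to 20 falls, with 2 to 8 and 0 to 0 among the listed genes. Among genes induced in both parents, in C57 only and in SPRET only they ranged from 1 to 8, 1 to 4 and 0 to 4 (64 to 67, 28 to 31 and 35 to 35 without a parental replicate), and among genes repressed in both, in C57 only and in SPRET only from 0 to 1, 0 to 2 and 0 to 2 (25 to 31, 26 to 31 and 68 to 71). The median position ranged from 0.57 to 0.60 without an F1 library and 0.57 to 0.62 without a parental replicate. The allele difference ranged from 0 to 1 genes.

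Scaling by the median of gene ratios gave 590 rises and 372 falls, 45 and 18 among genes induced and repressed in C57 only and 42 among those repressed in SPRET only. Quantile normalization gave 425 rises and 428 falls, 18 falls among genes repressed in C57 only and a position of 0.57. With a pseudocount of 10 there were 148 rises and 296 falls, 11 falls in the lists, 18, 23, 18, 13 and 36 calls among genes induced in C57 only, induced in SPRET only, and repressed in both, C57 only and SPRET only, and a position of 0.51. limma voom on recovered reads, chosen after seeing the data, gave 517 rises and a position of 0.61, and the study's own filter 23 rises in the lists. The position was 0.62 with no filter, 0.57 with at least 10 reads, 0.46 on the C57 allele and 0.62 on the SPRET allele, the last 3 chosen after seeing the data.

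For the parents, a pseudocount of 0.1 gave 412 and 350 calls in C57, 431 and 331 in SPRET and 425 and 296 differences, 53 falls among genes repressed in both and a position of 0.50. A pseudocount of 5 gave 160 and 80, 157 and 93, and 104 and 87, with 25 rises among genes induced in SPRET only and 8, 12 and 39 falls among genes repressed in both, C57 only and SPRET only. The time-course table gave 352 and 362 falls, 373 and 379 differences, 68, 57 and 109 falls in those groups and a position of 0.76, and median-ratio scaling of the parents a position of 0.67.

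The residuals of same-numbered F1 libraries correlated at 0.0674 across genes. With 2 libraries per group the residuals hold 1 contrast per group, so this value cannot show whether the replicate numbers pair the libraries. With the replicate block 316 genes rose and 1015 fell, and 1 gene passed for the allele difference; the parental block fit changed no count by over 1.5 times. Mtmr7 reversed to 0.17, 0.15, 0.01 and 0.14 under median-ratio scaling, quantile normalization, the SPRET allele alone and voom, and ranged from -0.18 to 0.05 in leave-one-out fits, where Pgf ranged from -0.31 to 0.61; both were below the threshold throughout. For 103 named genes, 1182 of 1247 values under the other alternatives kept direction and call and 58 lost the call, as did 337 of 412 leave-one-out values.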
